A study of Mus musculus with 15 samples.

Results

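The early transcriptional response of dendritic cells to a fungal-type sugar was measured by setting D1 cells given curdlan for 2 h against nontreated D1 cells. Its arrays were taken by their sample labels, not by their values, and are 6 of the 15 arrays of the series, 3 with curdlan for 2 h and 3 nontreated. D1 is a single growth-factor-dependent line kept in long-term culture from the spleen of C57BL/6 mice, so all arrays share 1 genotype, 1 strain and 1 medium. Curdlan was given at 10 µg/ml with no other agent, and the nontreated cells received neither curdlan nor drug. The remaining 9 arrays are of D1 cells that had curdlan for 4 h, or that had FK506 besides curdlan, harvested at either of these times. The labels call the arrays of a group biological replicates and do not say that they came from separate cultures. The p-values rest on the spread within groups pooled over all 15 arrays, which may be technical in part.

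Curdlan is a bacterial beta-glucan that is recognised by dectin-1, a C-type lectin receptor (gene Clec7a) through which DCs sense fungal cell walls. Dectin-1 signals through the kinase Syk. Syk acts by way of Card9, Bcl10 and Malt1 on NF-kB and by way of phospholipase C gamma and calcium on calcineurin and the NFAT factors. MAP kinases, which are activated as well, switch on immediate early genes such as the EGR and AP-1 factors. In DCs these pathways are known for inducing interleukins and chemokines that recruit neutrophils and monocytes and instruct T cells.

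Levels are log2 intensities as the authors deposited them, and each change is the mean of the curdlan arrays minus the mean of the nontreated arrays, with its standard error (SE) from limma. A gene passed the test, and is written as risen or fallen, where limma's adjusted p was under 0.05 and the fold change reached 1.5. Of 19937 genes tested, 439 rose (2.20%) and 279 fell (1.40%). In bulk RNA, more expressing cells and more RNA per cell cannot be told apart. Rises were larger than falls. The median change was 0.98 on the log2 scale over the genes that rose, −0.73 over those that fell and −0.04 over all genes. At least a 2-fold change was reached by 212 of the risen and 34 of the fallen genes, at least a 4-fold change by 72 and 1, and at least a 16-fold change by 12 and 0. Most of the risen genes had a nontreated intensity above the median. By the quartiles of the nontreated level, from low to high, the risen genes numbered 13, 66, 215 and 145 and the fallen genes 0, 10, 156 and 113. Only 4 risen genes stood over the median of gene means (6.76) with curdlan while their nontreated mean was under the lower quartile (5.28). These were Il2, the signalling regulator Rgs1, the mucin gene Muc16 and Il1bos, a transcript annotated opposite to Il1b, of which Muc16 and Il1bos were named after their values were seen.

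**Figure D1:**
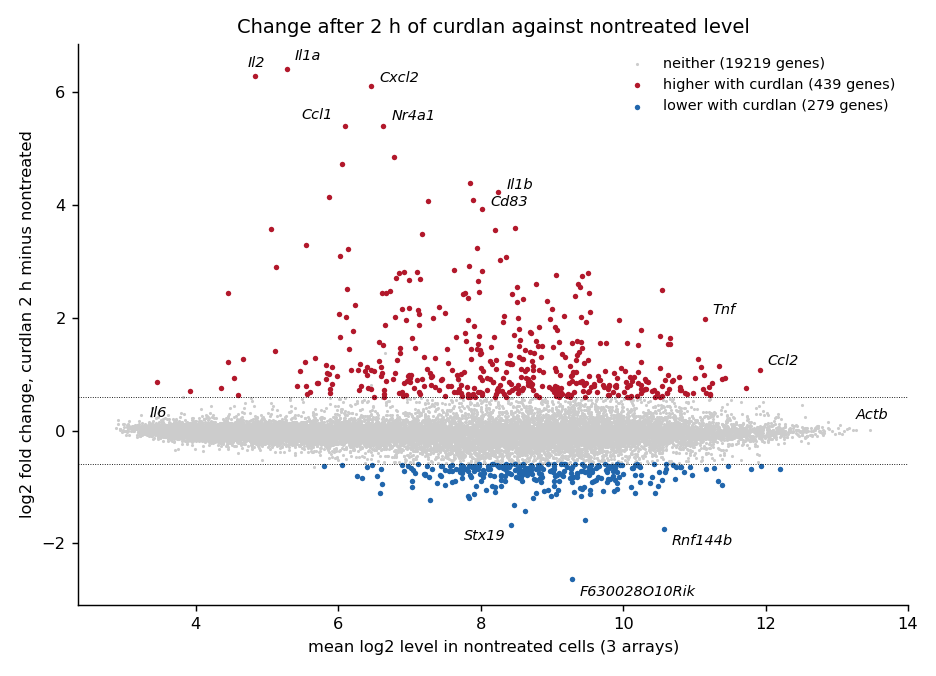
Change after 2 h of curdlan (vertical axis, log2 fold change, curdlan 2 h minus nontreated) against the mean log2 level in nontreated cells (horizontal axis), 1 point per gene, with the genes that rose in red (439), those that fell in blue (279) and all others in grey. Dotted lines mark the fold threshold of 1.5. The rises reach 6.40 (Il1a) and the falls −2.64 (F630028O10Rik), and Actb, at the far right, lies at 0.01.

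The arrays of a group were alike, with mean correlations within a group between 0.9935 and 0.9991 over the series, and 0 pairs of arrays held identical values. One array of each group stood apart, namely curdlan 2 h replicate 3 and nontreated replicate 1, to which limma gave array weights of 0.119 and 0.0781. Across genes, their deviations from their own group means correlated at 0.782 with each other, and their interquartile ranges over all probe sets (3.6 and 3.54) were narrower than those of all other arrays (3.7 to 3.76). When both were left out, 444 genes rose and 330 fell, and 418 and 268 of them were the same genes as with all arrays. The 3 curdlan arrays lay 1.03, 1.04 and 0.91 above the nontreated arrays in the median over the risen genes, and −0.71, −0.69 and −0.81 from them over the fallen genes. Because the genes were called on these same arrays, such shifts and a lack of overlap follow largely from the calling. In 714 of the 718 genes called, the curdlan and nontreated values did not overlap, against 25.1% of all genes tested. The exceptions were Cyb5d1, Gm6020, Lyrm1 and Senp8, in each of which one of the 2 arrays that stood apart was the overlapping one. These were named after their values were seen.

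Interleukin genes held the steepest rises. Il1a, which encodes the alarm cytokine interleukin-1 alpha, had log2 levels of 11.80, 11.72 and 11.54 with curdlan, against 4.98, 5.62 and 5.26 in nontreated cells. All curdlan values lay far above all nontreated ones (change 6.40 ± 0.12, limma adjusted p = 2.01e-13). Il2, the growth factor of T cells, stood at 11.15, 11.19 and 10.97 with curdlan, against 4.97, 4.72 and 4.79 in nontreated cells. The change of Il2 was 6.28 ± 0.08 (limma, adjusted p = 1e-14), with no overlap between the groups. In nontreated cells both genes stood near or under the lower quartile of gene means, and the size of a change from so low an intensity is uncertain. Il23a, the p19 subunit of interleukin-23, had 10.77, 10.82 and 10.72 with curdlan, against 6.34, 5.57 and 6.23 in nontreated cells. Its nontreated values were more scattered than its curdlan values, and the groups did not overlap. Il12b, the p40 subunit shared by interleukin-12 and interleukin-23, had 9.38, 9.38 and 9.29 with curdlan, against 6.44, 6.00 and 5.97 in nontreated cells. Both interleukin-23 subunit genes thus rose at 2 h, by 4.72 and 3.21. Il1b, the secreted interleukin-1, had 12.53, 12.57 and 12.29 with curdlan, against 7.64, 8.40 and 8.69 in nontreated cells. It rose by 4.22 ± 0.19, with nontreated replicate 1 the lowest array.

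Other members of these families moved less or not at all. Of 17 interleukin-1 family ligands and receptors 4 rose and 0 fell (list median 0.03), the others being the receptor antagonist Il1rn (2.67) and the accessory receptor Il1rap (0.77). Of 34 cytokines of the IL-2, IL-6, IL-10 and IL-12 types 5 rose and 1 fell (list median 0.02). The remaining rises were those of Lif (2.47) and Clcf1 (2.44), cytokines that signal through gp130, and the fall was that of Il16 (−0.75 ± 0.07). Il6 had 3.70, 3.56 and 3.30 with curdlan, against 3.50, 3.45 and 3.58 in nontreated cells. Il10 had 4.27, 4.27 and 4.21 with curdlan, against 4.27, 4.27 and 4.09 in nontreated cells. Il6 and Il10, an inflammatory and an anti-inflammatory interleukin, thus overlapped between the groups at levels under the lower quartile of gene means, at which the arrays could miss a small difference. None of 28 cytokine receptor genes passed the test, although 14 had an unadjusted limma p under 0.05, as did 5591 of all 19937 genes tested. The largest difference among them was that of the interleukin-10 receptor gene Il10ra, at 11.14, 11.13 and 11.12 with curdlan against 10.51, 10.62 and 10.68 in nontreated cells (0.53 ± 0.04), and the interferon gamma receptor gene Ifngr1 was at −0.40.

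**Figure D2:**
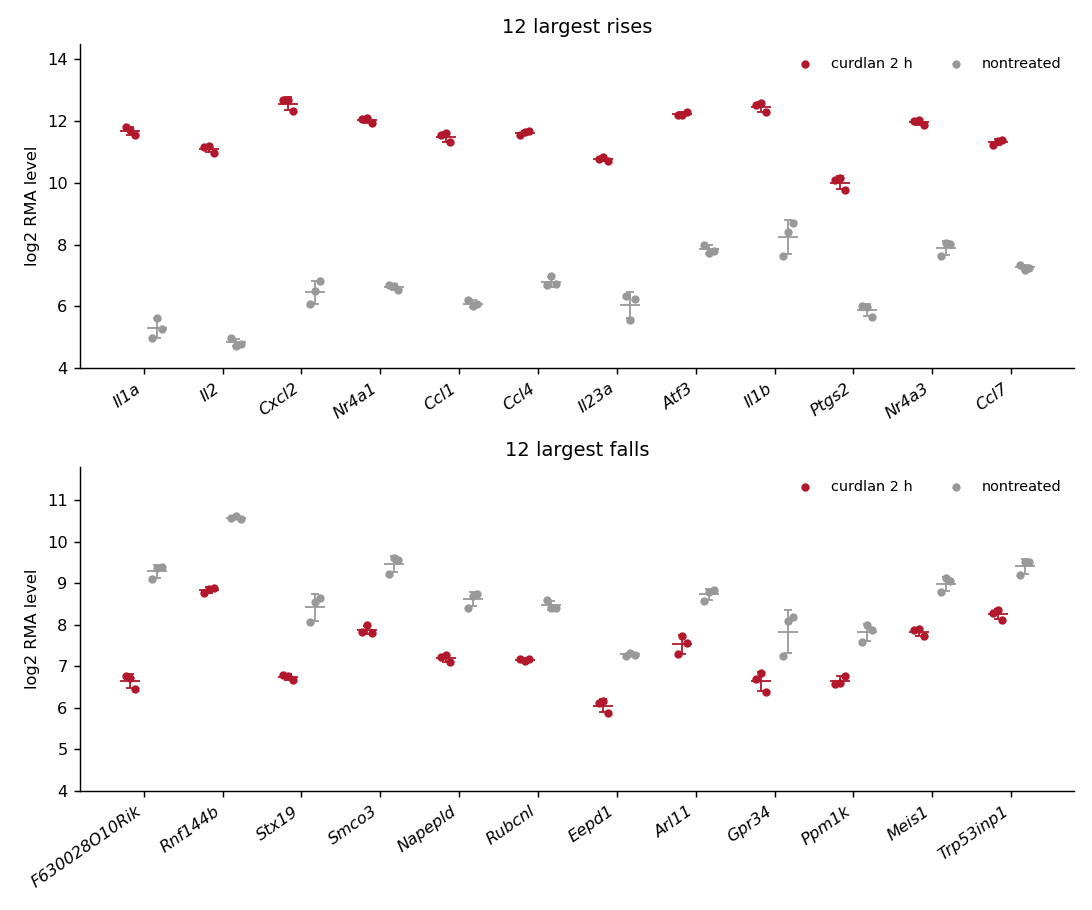
Log2 RMA levels (vertical axis) of the 12 genes with the largest rises (top) and the 12 with the largest falls (bottom), 1 point per array, with curdlan 2 h in red left of nontreated in grey. Bars give the mean ± SD of 3 arrays. The genes were chosen for values that do not overlap between the groups, and they run from Il1a (11.69 ± 0.13 with curdlan and 5.29 ± 0.32 in nontreated cells) to Trp53inp1.

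Chemokines attract neutrophils, monocytes, T cells and other leukocytes. Of 20 CC chemokine genes 9 rose and 0 fell (list median 0.29), and of 16 CXC and CX3C chemokine genes 5 rose and 0 fell (list median 0.06). With the arrays scaled again by quantiles or by their medians, 7 of the CXC and CX3C genes rose. Cxcl2, a neutrophil attractant, had 12.67, 12.70 and 12.34 with curdlan, against 6.07, 6.49 and 6.81 in nontreated cells (6.11 ± 0.14, limma adjusted p = 2.03e-12). Its groups did not overlap, and the nontreated values were spread more widely than the curdlan values. Ccl1, a ligand of Ccr8, had 11.55, 11.61 and 11.31 with curdlan, against 6.20, 6.01 and 6.07 in nontreated cells (5.40 ± 0.08). Ccl4, another CC chemokine, had 11.56, 11.65 and 11.67 with curdlan, against 6.68, 6.98 and 6.71 in nontreated cells (4.84 ± 0.07). Ccl7, a monocyte attractant, had 11.23, 11.34 and 11.40 with curdlan, against 7.34, 7.18 and 7.25 in nontreated cells (4.07 ± 0.06). The 3 curdlan values of each of these genes lay close together and far from the nontreated values. Ccl3 (2.49) and Ccl9 (2.14) rose less. Ccl2, the main monocyte attractant, already had a high intensity in nontreated cells, with 13.03, 13.06 and 12.91 with curdlan, against 11.91, 11.96 and 11.91 without. It rose by 1.07 ± 0.05. Cxcl10 (2.81), Cxcl16 (1.87), Cxcl9 (1.17) and the membrane-bound Cx3cl1 (0.71) rose as well. Of 23 receptors for chemokines and other attractants, the atypical receptor gene Ccrl2 (2.35) and the anaphylatoxin receptor genes C5ar1 (0.92) and C3ar1 (0.71) rose, and Cxcr4 fell, at 7.99, 7.95 and 8.04 with curdlan against 8.65, 8.69 and 8.65 in nontreated cells (−0.67 ± 0.05).

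TNF family ligands and growth factors made up a further secreted group. Of 16 TNF superfamily ligand genes 7 rose and 0 fell (list median 0.50). Tnf itself had 13.13, 13.20 and 13.03 with curdlan, against 11.26, 11.06 and 11.13 in nontreated cells (1.97 ± 0.05), so its intensity was high in both groups. Tnfsf15 (2.79), Tnfsf14 (2.70), the 4-1BB ligand gene Tnfsf9 (2.54) and the CD30 ligand gene Tnfsf8 (1.53) rose beside it. Of 25 receptors of the family 5 rose, led by Cd40, through which T cells license DCs, at 11.14, 11.18 and 11.29 with curdlan against 9.06, 9.21 and 9.23 in nontreated cells (2.04 ± 0.06). Fas (1.02), Tnfrsf12a (0.87), Tnfrsf1b (0.86) and Tnfrsf13c (0.85) were the others. Of 27 growth factors and vasoactive peptides 6 rose. Csf1, the macrophage growth factor, had 10.68, 10.78 and 10.54 with curdlan, against 7.15, 7.16 and 7.22 in nontreated cells (3.49 ± 0.07). Edn1, which encodes the vasoconstrictor endothelin-1, had 12.31, 12.31 and 12.30 with curdlan, against 9.36, 9.54 and 9.64 in nontreated cells (2.80 ± 0.06). Csf2, which encodes the granulocyte-macrophage growth factor GM-CSF, was the more variable, with 8.13, 8.40 and 7.71 with curdlan, against 6.20, 5.83 and 6.02 in nontreated cells (2.06 ± 0.14). The platelet-derived growth factor genes Pdgfa (1.67) and Pdgfb (1.55) rose by similar amounts. Ptgs2, the inducible cyclooxygenase of prostaglandin synthesis, had 10.10, 10.15 and 9.77 with curdlan, against 6.00, 5.97 and 5.67 in nontreated cells (4.13 ± 0.10). It and the prostaglandin E2 receptor gene Ptger4 (1.51) were the 2 genes that rose among 22 genes of prostaglandin and leukotriene synthesis and signalling.

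Transcription factor genes were read family by family. All 3 NR4A orphan nuclear receptor genes rose, and no other of 17 nuclear receptor genes did. Nr4a1 had 12.05, 12.09 and 11.94 with curdlan, against 6.70, 6.65 and 6.53 in nontreated cells (5.40 ± 0.07, limma adjusted p = 5.8e-15). Nr4a3 had 12.01, 12.03 and 11.86 with curdlan, against 7.62, 8.04 and 8.004 in nontreated cells (4.08 ± 0.09). Nr4a2 rose by 1.92. With curdlan the mean levels were 12.03 for Nr4a1, 11.97 for Nr4a3 and 11.40 for Nr4a2, on a probe-set scale that does not rank genes against each other. Of 6 EGR and NAB genes 4 rose (list median 1.58). Egr3 had 11.37, 11.49 and 11.42 with curdlan, against 8.54, 8.22 and 8.33 in nontreated cells (3.07 ± 0.07). Egr2 had 11.74, 11.76 and 11.63 with curdlan, against 9.19, 9.38 and 9.43 in nontreated cells (2.38 ± 0.06). Egr1 rose by 2.27 ± 0.06 and Nab2, a corepressor that binds EGR proteins, by 0.88 ± 0.04. Of 33 AP-1 and other bZIP genes 10 rose and 0 fell (list median 0.20). Atf3, a stress-induced repressor, had 12.19, 12.21 and 12.29 with curdlan, against 8.0004, 7.72 and 7.81 in nontreated cells (4.39 ± 0.06). The others included Maff (2.81), Junb (2.16), Fosb (1.25) and Jund (0.90). Of 37 KLF, ETS and other immediate factors 7 rose, among them Klf9 (1.44), Klf10 (1.36) and Myc (0.89 ± 0.04), and Fli1, an ETS factor, fell, at 9.49, 9.45 and 9.44 with curdlan against 10.12, 10.12 and 10.12 in nontreated cells. Of 10 interferon regulatory factor genes 3 rose, namely Irf8 (1.59 ± 0.04), Irf4 (0.87) and Irf1 (0.81).

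The NF-kB list held the highest share of risen genes among the 43 response lists, with 17 of 25 members risen and 0 fallen (list median 0.89). Genes of atypical IkB proteins led it. Nfkbid, an atypical IkB protein, had 12.10, 12.14 and 11.98 with curdlan, against 8.38, 8.55 and 8.50 in nontreated cells (3.60 ± 0.06). Nfkbiz, another atypical IkB protein, had 11.26, 11.29 and 11.31 with curdlan, against 8.19, 8.37 and 8.25 in nontreated cells (3.02 ± 0.05). Tnfaip3, which encodes the ubiquitin-editing enzyme A20, rose by 2.83 ± 0.06 and Nfkbia, the classical inhibitor IkB alpha, by 1.64 ± 0.04. Tnfaip2, a TNF-induced gene, rose by 2.59 ± 0.04. Of 24 TRAF, inhibitor of apoptosis and BCL2 family genes 7 rose, led by the caspase-8 inhibitor Cflar (2.03), Casp4 (1.87), Traf1 (1.60) and Bcl2l1, which encodes the survival protein BCL-XL (1.39). Gadd45b, a stress gene known to limit JNK signalling, had 11.74, 11.74 and 11.79 with curdlan, against 8.28, 8.18 and 8.12 in nontreated cells (3.56 ± 0.05). It led a list of 21 MAP kinase feedback genes, of which 6 rose and 1 fell. The phosphatase genes Dusp2 (2.44), Dusp1 (2.42), Dusp5 (1.96) and Dusp14 (1.66) rose, whereas Dusp6, a phosphatase of ERK, fell, at 9.02, 9.18 and 9.14 with curdlan against 9.71, 10.05 and 10.06 in nontreated cells (−0.83 ± 0.08). Cytokine signalling was represented by Socs3 (2.33), Stat5a (1.56), Socs5 (0.84) and Cish (0.74), which rose, and Stat2 (−0.83 ± 0.04), which fell, of 19 SOCS, JAK and STAT genes. Of 24 genes for mRNA decay factors and other RNA-binding proteins 6 rose. These were the antiproliferative genes Btg2 (2.10) and Btg1 (0.99), the RNase gene Zc3h12a (2.08) and its relative Zc3h12c (1.66), and Zfp36 (1.84) and Zfp36l1 (0.90), whose proteins destabilise cytokine mRNAs.

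The receptor gene did not pass the test. Clec7a had 10.40, 10.38 and 10.40 with curdlan, against 10.29, 10.50 and 10.44 in nontreated cells (−0.01 ± 0.05, limma adjusted p = 0.919), so the groups overlapped at a high level. Of 19 genes for dectin-1 and its proximal signalling proteins 2 rose (10.5%, against 2.20% of all genes) and 0 fell (list median 0.05). Of the 19, 12 were at an unadjusted limma p under 0.05, as were 5591 of all 19937 genes tested. Malt1, the paracaspase of the Card9 complex, had 12.01, 11.99 and 11.84 with curdlan, against 10.90, 11.02 and 11.11 in nontreated cells (0.94 ± 0.06), and its partner Bcl10 was at 0.61 ± 0.05. Without curdlan 2 h replicate 3, Bcl10 lay below the fold threshold (0.57) and Malt1 was the 1 risen gene. Of 23 genes of calcium entry, calcineurin and NFAT 3 rose (13%) and 0 fell (list median 0.00), with 14 at an unadjusted limma p under 0.05. Rcan1, a feedback inhibitor of calcineurin, had 9.39, 9.50 and 9.26 with curdlan, against 7.88, 8.09 and 8.05 in nontreated cells (1.38 ± 0.06). Nfatc1 had 11.25, 11.26 and 11.11 with curdlan, against 10.31, 10.33 and 10.39 in nontreated cells (0.86 ± 0.05). Nfat5, a calcineurin-independent family member, was at 0.59, just at the fold threshold, and did not pass with nontreated replicate 1 left out (0.49), or with either of curdlan 2 h replicates 1 (0.56) and 2 (0.54) left out. Nfatc2 had 10.00, 10.05 and 10.01 with curdlan, against 10.30, 10.40 and 10.40 in nontreated cells, a difference of −0.35 ± 0.04 that was past the p threshold and short of the fold threshold (limma, adjusted p = 3.79e-05). Of 21 other C-type lectin genes 2 rose. Clec4e, which encodes the Mincle receptor, rose by 1.56 ± 0.10, and Clec4d (0.67) passed with all arrays but not without nontreated replicate 1 (0.43). Toll-like and NOD-like receptors moved in both directions, with 4 of 27 risen and 3 fallen. Tlr2 (1.06), the inflammasome sensor gene Nlrp3 (0.91), the co-receptor gene Cd14 (0.71) and the kinase gene Irak2 (0.69) rose. Tlr13 fell, at 10.06, 10.06 and 10.18 with curdlan against 10.70, 10.76 and 10.77 in nontreated cells (−0.64 ± 0.05). Tlr4 (−0.77) and Tlr3 (−0.69) also fell, less firmly. Cd14 did not pass without nontreated replicate 1 (0.54), Tlr4 not without curdlan 2 h replicate 3 (−0.58), and Tlr3 not without nontreated replicate 3 (−0.58).

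Of 37 costimulation, coinhibition and adhesion genes 11 rose and 0 fell (list median 0.05). Cd83, the classical marker of DC maturation, had 11.95, 11.997 and 11.87 with curdlan, against 7.96, 8.04 and 8.04 in nontreated cells. It rose 15.2-fold (3.92 ± 0.04) and had the smallest p of all genes (limma, adjusted p = 3.58e-15). Sema7a, a semaphorin that binds integrins, had 10.44, 10.48 and 10.39 with curdlan, against 7.99, 7.97 and 7.98 in nontreated cells (2.46 ± 0.04). Marcksl1 (2.01), the integrin gene Itga5 (1.55) and the adhesion gene Icam1 (1.53) followed. Cd80, a ligand of CD28, was high in both groups, at 12.30, 12.35 and 12.22 with curdlan against 11.30, 11.42 and 11.44 in nontreated cells (0.91 ± 0.05). Of 23 MHC class I and II presentation genes 0 rose and 2 fell. Ciita, the master regulator of MHC class II genes, had 10.62, 10.66 and 10.57 with curdlan, against 11.22, 11.27 and 11.33 in nontreated cells (−0.66 ± 0.04). Marchf1, a ligase that removes MHC class II from the surface, fell by the same amount (−0.66 ± 0.05). Interferon-related genes were divided. Of 32 antiviral interferon-stimulated genes 3 rose, namely Ifi205 (1.21), Rsad2 (1.13) and Ifih1 (1.03). Of 9 guanylate-binding and immunity-related GTPase genes, which are textbook targets of interferon gamma, 0 rose and 4 fell (list median −0.52). Gbp8 had 8.08, 8.03 and 7.71 with curdlan, against 8.90, 9.09 and 9.20 in nontreated cells (−1.13 ± 0.10), and Gbp4 had 8.35, 8.26 and 8.49 with curdlan, against 9.12, 9.33 and 9.41 in nontreated cells (−0.92 ± 0.08). Gbp9 (−0.76) and Gbp5 (−0.70) were the others. These genes are near copies of each other, and how far their probes are shared was not tested.

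Enzymes of defence metabolism and of the matrix formed smaller groups. Of 18 tryptophan, arginine, itaconate and oxysterol enzymes 3 rose. Ch25h, which makes 25-hydroxycholesterol, had 11.33, 11.34 and 11.47 with curdlan, against 8.62, 8.88 and 8.83 in nontreated cells (2.60 ± 0.07). Acod1, which makes itaconate, rose by 2.44 ± 0.09 and Gch1, the first enzyme of tetrahydrobiopterin synthesis, by 1.92 ± 0.09. Of 25 matrix protease and plasminogen genes 6 rose, led by the collagenase gene Mmp13, at 9.17, 9.28 and 8.94 with curdlan against 6.15, 5.89 and 6.04 in nontreated cells (3.10 ± 0.08), and Adamts6 (2.51 ± 0.14). Both plasminogen activator genes, Plat (1.77) and Plau (1.51), rose with the urokinase receptor gene Plaur (1.75). Of 33 histone lysine demethylase and methyltransferase genes 4 rose. Kdm6b, which encodes the H3K27 demethylase JMJD3, had 11.18, 11.25 and 11.12 with curdlan, against 7.88, 7.98 and 7.99 in nontreated cells (3.23 ± 0.05), far more than Jarid2 (0.91) and Phf8 (0.88). Kdm3a (0.69) passed with all arrays but not without nontreated replicate 1 (0.49). Of 18 NRF2 oxidative stress genes 6 rose, among them Hmox1 (1.26), Sqstm1 (1.14) and Srxn1 (1.11), and the cystine transporter gene Slc7a11 rose by 1.56 ± 0.11. Slc41a1, a magnesium transporter gene, led the 364 solute carrier genes (2.54 ± 0.06). Of these 7 rose and 7 fell (1.92% each), near the shares of all genes (2.20% and 1.40%). After scaling by quantiles 10 of the solute carrier genes rose and 8 fell, and after centring on the medians 10 rose and 5 fell. Of 24 cholesterol genes 1 rose (2 after centring, or with nontreated replicate 2 or 3 taken out) and 1 fell. That is 4.17% each, against 2.20% and 1.40% of all genes, and each share rests on 1 gene. The 2 called genes encode efflux pumps and moved in opposite directions. Abca1 had 6.49, 6.50 and 6.68 with curdlan, against 6.03, 5.87 and 5.77 in nontreated cells (0.66 ± 0.07). Abcg1 had 9.44, 9.35 and 9.75 with curdlan, against 10.56, 10.48 and 10.44 in nontreated cells (−0.98 ± 0.08). Single rises were found for Hspa1a among 13 heat shock genes (2.06 ± 0.13), Ctsl among 23 lysosomal genes (1.02 ± 0.06) and Pfkp among 18 glycolysis genes (0.78 ± 0.04). These single genes make up 7.69%, 4.35% and 5.56% of their lists, against 2.20% risen of all genes. Of 21 unfolded protein and integrated stress response genes, Ppp1r15a (2.16 ± 0.06), which encodes the GADD34 phosphatase subunit, and Herpud1 (0.72) rose and Eif2ak3 fell (−0.69). Of 38 DNA replication and cell cycle genes 0 rose and 2 fell (list median −0.16), Cdc6 and Cdkn1b, both at −0.60. Neither call was firm, and neither gene passed after the arrays were scaled again by quantiles or medians. Cdc6 did not pass without curdlan 2 h replicate 2 (−0.54) or nontreated replicate 3 (−0.55), nor Cdkn1b without curdlan 2 h replicate 3 (−0.44), nontreated replicate 2 (−0.53) or nontreated replicate 3 (−0.51). Of 25 TGF-beta and Notch genes 4 rose, among them the transcriptional repressors Skil (1.5003) and Tgif1 (1.25).

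Of 27 purinergic, adenosine and orphan receptor genes 4 rose and 5 fell (list median −0.13), a balance that turned to 5 risen and 3 fallen when each array was centred on its median. Gpr84, a receptor for medium-chain fatty acids, had 9.80, 9.92 and 9.80 with curdlan, against 6.99, 7.32 and 7.14 in nontreated cells (2.69 ± 0.07). Gpr132 (1.37), the niacin receptor gene Hcar2 (0.99) and the ATP receptor gene P2ry2 (0.97) rose too. Gpr34, a lysophosphatidylserine receptor, had 6.71, 6.83 and 6.39 with curdlan, against 7.24, 8.08 and 8.19 in nontreated cells (−1.20 ± 0.19), with nontreated replicate 1 far below the others. Gpr141 (−1.08), the cannabinoid receptor gene Cnr2 (−1.01) and P2rx7 (−0.62), another ATP receptor gene, fell with it. S1pr4 (−0.59) passed with all arrays but not with curdlan 2 h replicate 2 (−0.55) or nontreated replicate 3 (−0.54) taken out. Nor did it pass after the arrays were scaled again by quantiles (−0.54) or medians (−0.55). Rgs1, which shuts off G protein signals, had 8.64, 8.75 and 8.47 with curdlan, against 4.89, 5.18 and 5.10 in nontreated cells (3.56 ± 0.09). Rasgrp1, a diacylglycerol-activated Ras exchange factor, moved the other way, with 9.01, 9.07 and 9.12 with curdlan, against 10.20, 10.14 and 10.17 in nontreated cells (−1.10 ± 0.04).

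The largest falls were smaller than the rises and belonged to few named pathways. F630028O10Rik, a gene known only by its clone name, had 6.76, 6.73 and 6.46 with curdlan, against 9.10, 9.36 and 9.40 in nontreated cells. It was the 1 gene lowered more than 4-fold (−2.64 ± 0.10, limma adjusted p = 2.22e-10). Rnf144b, a ubiquitin ligase gene, had 8.76, 8.87 and 8.89 with curdlan, against 10.57, 10.61 and 10.54 in nontreated cells (−1.74 ± 0.05). Stx19, a syntaxin gene of vesicle fusion, had 6.80, 6.77 and 6.66 with curdlan, against 8.06, 8.54 and 8.66 in nontreated cells (−1.68 ± 0.12). Nontreated replicate 1 was the lowest of the 3 nontreated arrays for F630028O10Rik and Stx19 and in the middle for Rnf144b. Smco3 (−1.58), Napepld, which makes N-acylethanolamines (−1.42), the autophagy regulator Rubcnl (−1.31), the exonuclease gene Eepd1 (−1.24), the small GTPase gene Arl11 (−1.20) and the phosphatase gene Ppm1k (−1.17) came next. The homeobox gene Meis1 had 7.87, 7.89 and 7.72 with curdlan, against 8.79, 9.12 and 9.06 in nontreated cells (−1.16 ± 0.08). Trp53inp1, a p53-induced gene, had 8.28, 8.35 and 8.12 with curdlan, against 9.19, 9.51 and 9.52 in nontreated cells (−1.15 ± 0.09). Among the fallen genes with the highest nontreated levels were Gapt (−0.68), the kinase gene Pik3cg (−0.68), Asb2 (−0.62) and the RNase gene Rnase6 (−0.90), all with nontreated means above 11. Zinc finger genes were more often lower than higher. Of 347 genes named Zfp 22 fell (6.34%) and 5 rose (1.44%), against 1.40% and 2.20% of all genes. The list median was −0.11, against −0.04 over all genes. Zfp366 had 8.84, 8.91 and 8.88 with curdlan, against 9.93, 9.91 and 9.91 in nontreated cells (−1.04 ± 0.04), and Zfp652 fell by 0.93. Of the 5 that rose, Zfp36 and Zfp36l1 encode the RNA-binding proteins described above. With nontreated replicate 1 left out, 41 of the zinc finger genes fell, and with curdlan 2 h replicate 3 left out, 8 rose. After scaling by quantiles or medians 20 fell and 5 rose.

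**Figure D3:**
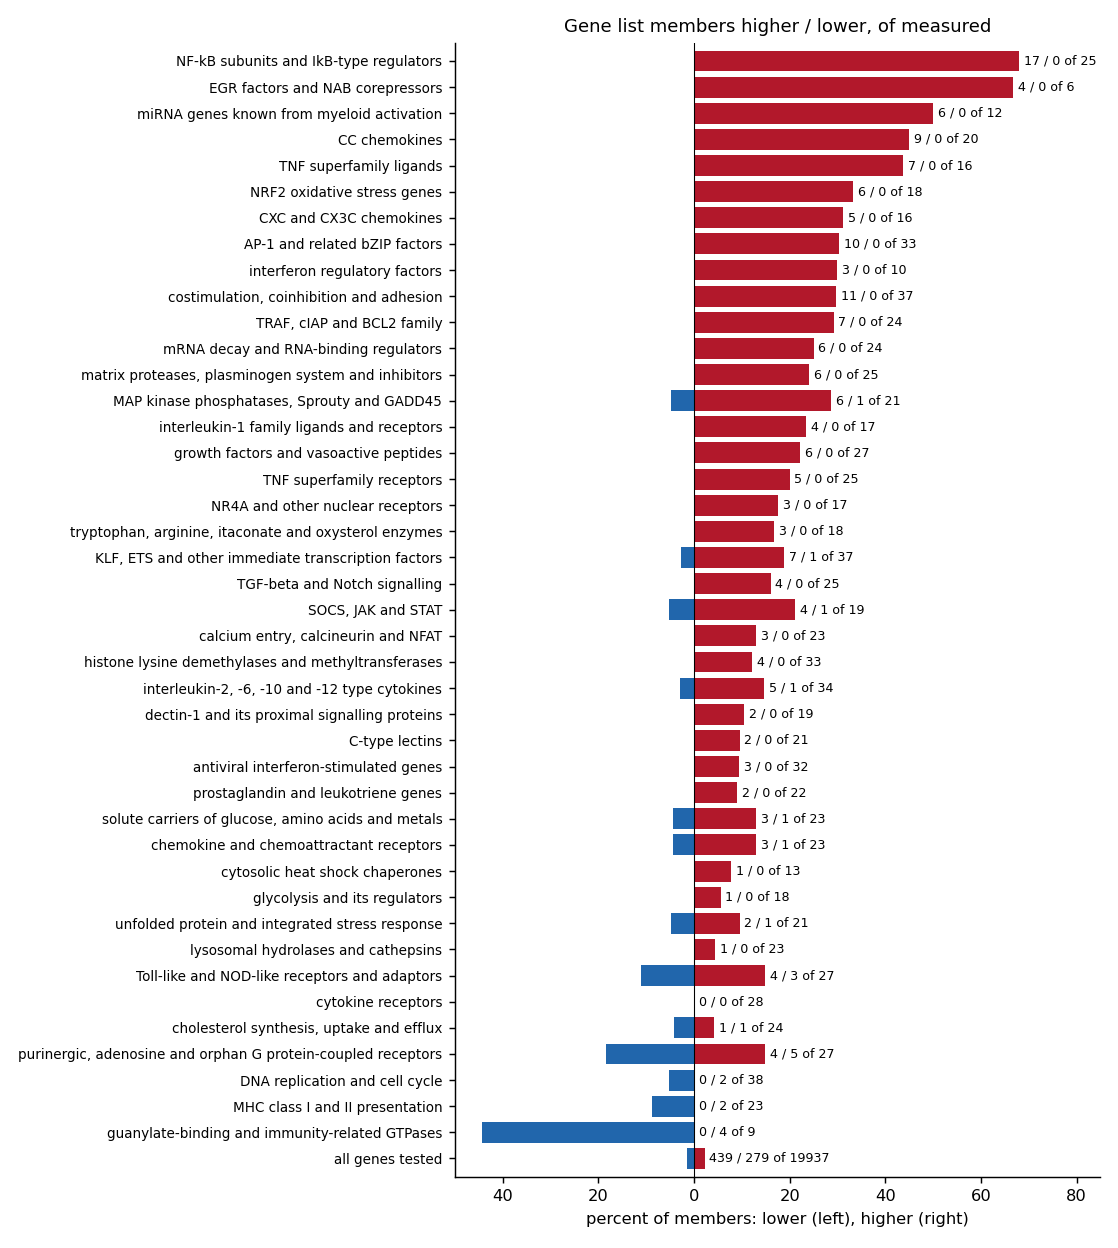
Percentage of measured members of each response list shown that rose (red, to the right) or fell (blue, to the left) after 2 h of curdlan, with the numbers risen, fallen and measured beside each bar and all genes tested in the bottom row. The NF-kB list is at the top (17 of 25 risen) and the guanylate-binding and immunity-related GTPases just above the bottom row (4 of 9 fallen).

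Markers of other cell types and reference genes were read on the same arrays. Of 12 conventional DC markers 8 were above the median nontreated level, with Itgax (CD11c) at 12.08, whereas Flt3 (5.93), Xcr1 (5.08) and Clec9a (4.27) were low. Of 9 macrophage markers 6 were above that median, among them Adgre1 (11.67) and C1qb (11.45), and 2 were under the lower quartile of gene means. Only Irf8 and Irf4 of the DC markers and Cd14 of the macrophage markers rose, the last not without nontreated replicate 1. None of 7 plasmacytoid DC, 3 erythroid, 11 fibroblast, 8 neutrophil, 6 B, 8 T and 8 NK cell markers passed, of which 2, 0, 1, 0, 0, 1 and 0 had an unadjusted limma p under 0.05. Of 8 mast cell and basophil markers 1 rose, Hdc, the histamine-forming enzyme (1.11 ± 0.05), while the other 7 lay between −0.13 and 0.10. Actb had 13.48, 13.49 and 13.48 with curdlan, against 13.47, 13.47 and 13.48 in nontreated cells. None of 10 housekeeping and 55 ribosomal protein genes passed, with 2 and 4 at an unadjusted limma p under 0.05. Over all 19937 genes tested, 5591 were under that p.

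Genes of microRNAs, short RNAs that repress mRNAs through pairing of their seed (bases 2 to 8), were read through their genes. Of 300 microRNA genes tested 9 rose (3.0%) and 2 fell (0.667%), against 2.20% and 1.40% of all genes, and of 12 known from myeloid activation 6 rose and 0 fell (list median 0.49). The probe sets read transcripts of the microRNA gene, not the mature microRNA, whose level was not measured. Mir155 had 8.87, 8.93 and 8.75 with curdlan, against 5.27, 5.75 and 5.63 in nontreated cells (3.29 ± 0.11, limma adjusted p = 4.29e-11). Mir146, the gene of miR-146a, had 5.89, 6.19 and 4.90 with curdlan, against 3.97, 4.57 and 4.81 in nontreated cells, with curdlan 2 h replicate 3 close to the nontreated values (1.21 ± 0.27, limma adjusted p = 0.00555). Its call did not hold in limma's fit to the 6 arrays alone (limma, adjusted p = 0.112). Mir146b, named here for its shared seed after its values were seen, had 7.79, 7.85 and 7.83 with curdlan, against 7.29, 7.001 and 7.11 in nontreated cells (0.69 ± 0.09). Mir221 had 8.67, 8.67 and 8.68 with curdlan, against 7.45, 7.61 and 7.72 in nontreated cells (1.08 ± 0.08), while its neighbour Mir222 had 7.32, 7.40 and 7.32 with curdlan, against 6.00, 6.54 and 6.28 in nontreated cells (1.07 ± 0.12). Mir212 had 8.34, 8.36 and 8.35 with curdlan, against 7.91, 7.55 and 7.53 in nontreated cells (0.69 ± 0.09). Mir132, its neighbour, was at 0.29 ± 0.09 and did not pass the fold threshold. The sequences of 11 of the 12 genes were read from RefSeq (GRCm38.p6), with a chromosome left out of the search. Mature sequences are shown for the arms by which these genes are best known, 5′ to 3′ with the seed in capitals. By seed they form 4 groups: miR-155 alone, the miR-146 pair, the miR-221 and miR-222 pair, and miR-212 with miR-132.
mmu-miR-155-5p: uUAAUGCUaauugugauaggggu
mmu-miR-146a-5p: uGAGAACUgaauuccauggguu
mmu-miR-146b-5p: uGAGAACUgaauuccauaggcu
mmu-miR-221-3p: aGCUACAUugucugcuggguuuc
mmu-miR-222-3p: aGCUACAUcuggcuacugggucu
mmu-miR-212-3p: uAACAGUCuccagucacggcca
mmu-miR-132-3p: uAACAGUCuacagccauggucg
The miR-146a and miR-146b genes lie on different chromosomes (chr11:43374435-43374456 and chr19:46342790-46342811 for the arms shown), while miR-221 and miR-222 (chrX:19146307-19146329 and chrX:19146901-19146923, minus strand) and miR-212 and miR-132 (chr11:75173443-75173464 and chr11:75173723-75173744, plus strand) are close neighbours.

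The promoters of the changed genes were searched for letters known to bind the factors of these pathways. The window was the 250 bases before each start that RefSeq lists, on both strands, and a gene counted once if any of its starts held a match. A window was read for 334 of the risen genes, 225 of the fallen genes and 15613 of all genes tested. Genes of a chromosome left out of the search are not among them. The kB consensus was present for 14.1% of risen genes, 5.78% of fallen genes and 5.05% of all genes. The CRE (TGACGTCA) was present for 5.69%, 3.11% and 2.33%, the EGR site (GCGTGGGCG) for 2.99%, 1.78% and 0.929%, and the AP-1 site (TGANTCA) for 9.58%, 5.78% and 7.12%. The NFAT core (GGAAAA), which can lie within a kB match and is then counted for both, was common everywhere, at 25.7%, 25.3% and 22.3%. The CArG box was rare everywhere (1.5%, 1.78% and 1.45%). The E-box (CACGTG) stood at 8.98%, 11.6% and 8.11% and the TATA box (TATAAA) at 14.7%, 8.44% and 12.5%. Risen genes had several listed starts in 20.4% of cases, fallen genes in 27.6% and all genes in 16.9%, which gives them more sequence to match. Among genes with 1 listed start, a choice made after the data were seen, the kB share was 10.2% of risen, 4.29% of fallen and 4.15% of all genes. In that set the CRE was present for 4.89% of risen and 2.1% of all genes, and the EGR site for 3.38% and 0.755%. The AP-1 site lay nearer the share of all genes there, at 6.77% and 6.1%, and the NFAT core was at 20.7% and 20%. A match is a run of letters and does not show binding.

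**Figure D4:**
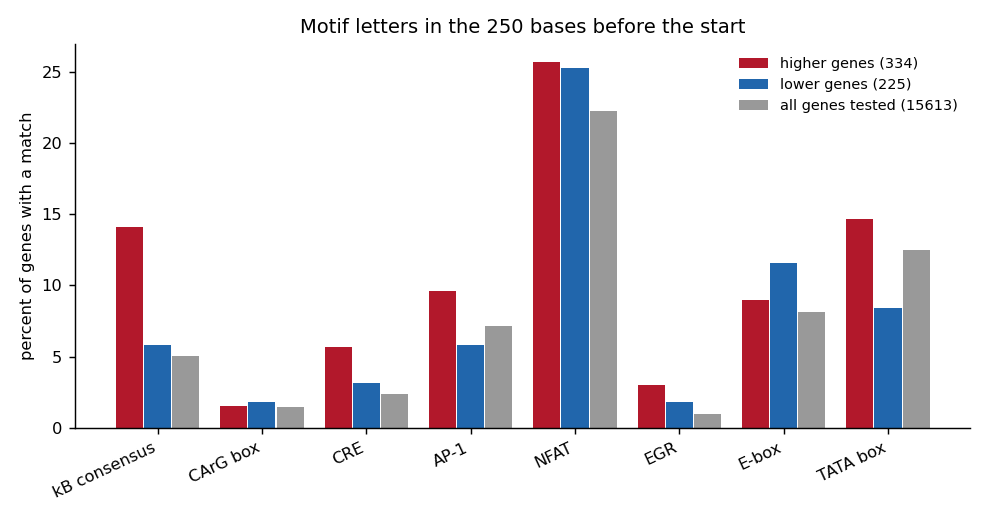
Percentage of genes (vertical axis) whose 250 bases before a RefSeq start hold each of 8 motifs (horizontal axis) on either strand, for the genes that rose (red, 334), those that fell (blue, 225) and all genes tested (grey, 15613). The kB consensus shows the widest gap in percentage points, 14.1% of risen genes against 5.05% of all genes.

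Among the largest rises and the fixed set of genes, 3 risen genes whose window was read had a kB, CArG or CRE match, and their 250 bases are shown with the match in capitals. In Cxcl2 (chr5:90903649-90903898, plus strand) the capitals are 2 overlapping kB matches that begin 97 and 96 bases before the start. In Egr2 (chr10:67537316-67537565, plus strand, 1 of its 5 listed starts) they are a CArG box 72 bases before the start, and in Rcan1 (chr16:92400079-92400328, minus strand, 1 of 2 listed starts) a CRE 175 bases before the start.
Cxcl2: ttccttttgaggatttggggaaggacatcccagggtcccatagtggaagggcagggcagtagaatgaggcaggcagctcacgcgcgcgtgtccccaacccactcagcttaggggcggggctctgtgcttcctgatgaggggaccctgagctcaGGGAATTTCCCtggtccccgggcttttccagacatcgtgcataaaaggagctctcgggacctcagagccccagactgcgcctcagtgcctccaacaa
Egr2: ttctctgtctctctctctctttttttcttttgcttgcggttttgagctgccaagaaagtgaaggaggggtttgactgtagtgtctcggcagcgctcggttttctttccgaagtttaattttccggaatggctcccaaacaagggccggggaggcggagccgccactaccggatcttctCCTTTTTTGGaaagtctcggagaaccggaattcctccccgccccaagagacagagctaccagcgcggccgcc
Rcan1: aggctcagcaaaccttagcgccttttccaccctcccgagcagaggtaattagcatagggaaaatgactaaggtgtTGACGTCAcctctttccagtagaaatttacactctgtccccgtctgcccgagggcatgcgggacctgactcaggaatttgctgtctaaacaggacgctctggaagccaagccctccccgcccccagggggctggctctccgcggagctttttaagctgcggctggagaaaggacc
These 3 genes rose by 6.11, 2.38 and 1.38. Of the steepest rises, Il2 held 2 NFAT cores and a TATA box in this window, Il1a an AP-1 site and a TATA box, and Nr4a1, Nr4a3 and Atf3 none of the 8 motifs, which says only that these letters are not in this window.

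The 2 h response was then set beside the other curdlan groups for the 12 largest rises, the 12 largest falls and the fixed set, 37 genes in all. These comparisons use the same curdlan 2 h arrays as the main comparison. The largest rises and falls were chosen by their values on these arrays, and the fixed set with earlier results known. The shares of these genes that changed therefore cannot be weighed against those of all genes, which are given for scale only. From 2 h to 4 h, 17 of the 37 genes changed, against 4.09% of all genes. Il12b (2.19), Csf2 (1.25), Il2 (1.13), Ccl1 (1.02) and Il23a (0.99) rose further, Il6 was higher at 4 h than at 2 h (0.93), and Ccl7 (−1.56), Egr3 (−1.17), Egr2 (−1.01), Nr4a1 (−0.93) and Rcan1 (−0.80) fell back. Of the 12 largest falls, Rubcnl (0.9989), Trp53inp1 (0.81), Ppm1k (0.69) and Meis1 (0.67) were higher at 4 h than at 2 h. With FK506, a calcineurin inhibitor, 19 of the 37 genes differed from curdlan alone at 2 h, against 1.12% of all genes. Ccl7 was at 7.58 on average with FK506 and curdlan, against 11.32 with curdlan alone (−3.75 ± 0.06). Ccl4 (−2.55), Ptgs2 (−2.11), Il12b (−2.03), Csf2 (−1.67), Ccl1 (−1.67) and Il2 (−1.61) were also lower with FK506. Il1a (−0.23), Cxcl2 (−0.36), Atf3 (−0.13), Il1b (−0.12), Kdm6b (−0.20) and Tnf (−0.19) did not pass. Of the 12 largest falls, 6 were less deep with FK506 than with curdlan alone, Meis1 (1.12) and F630028O10Rik (0.9995) most.

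**Figure D5:**
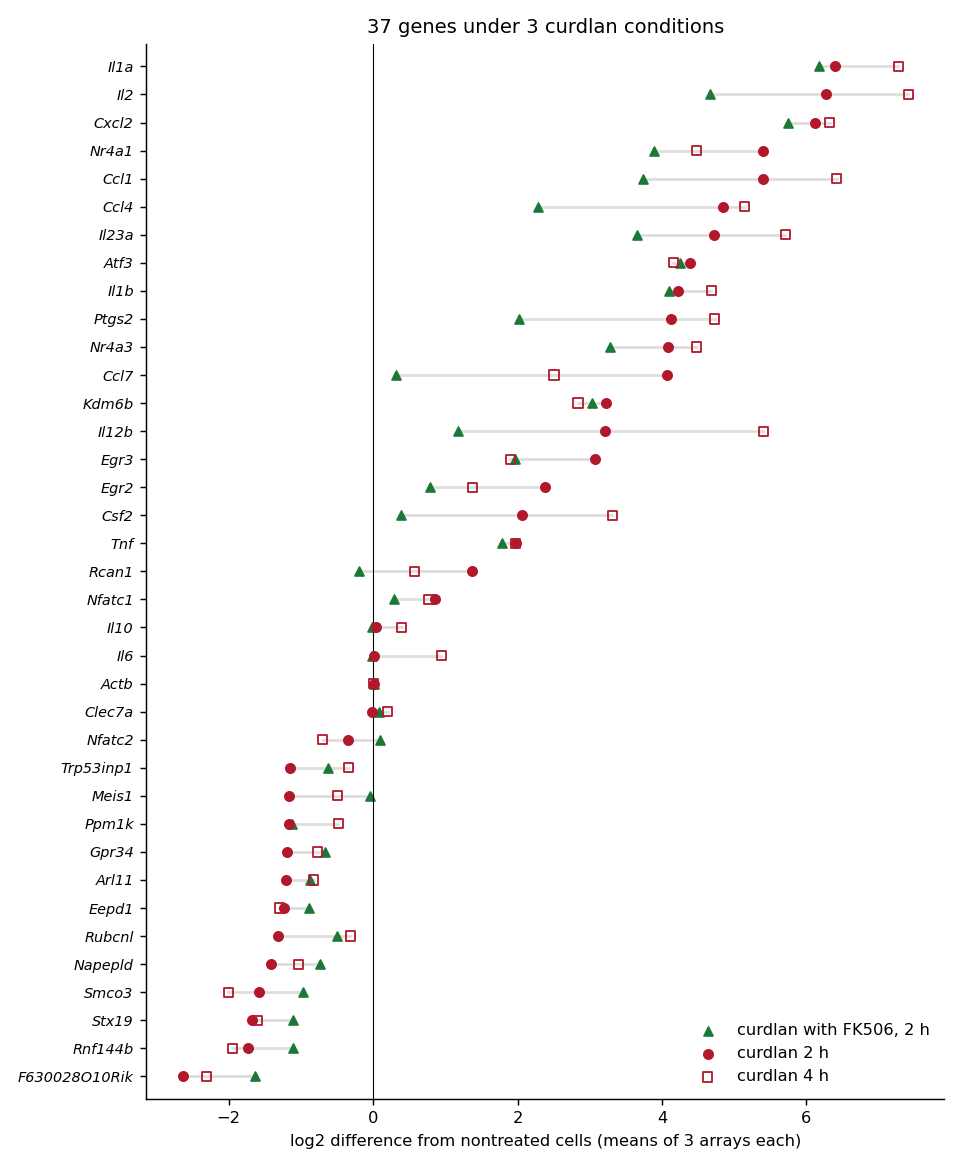
Log2 difference from nontreated cells (horizontal axis, means of 3 arrays each) of 37 genes, ordered by their change with curdlan at 2 h, for curdlan with FK506 at 2 h (green triangles), curdlan at 2 h (filled circles) and curdlan at 4 h (open squares). Ccl7 is at 4.07 with curdlan at 2 h and 3.75 lower with FK506, while the 3 symbols of Actb coincide.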

How the data were processed

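RNA of D1 cells was hybridised to Affymetrix Mouse Gene 1.0 ST arrays, 3 in each of 5 groups. The authors deposited log2 values that, per the submitters' processing notes and the study's methods, were background-corrected, quantile-normalised and summarised by RMA with the affy package in R 2.15.2, 1 value per probe set. RMA compresses differences at low signal, and its quantile step gives all arrays nearly the same distribution. Of 34760 probe sets, 21640 had 1 gene symbol in the platform annotation, 1321 several and 11799 none. For each of the 19937 genes with a symbol of its own, 1 probe set was tested, and 954 genes had several. The number of arrays limits the precision, with a median SE of 0.0769 on the log2 scale.

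Groups came from the sample labels. limma 3.58.1 in R 4.3.3 fitted 1 mean per group over all 15 arrays (10 residual degrees of freedom), with moderated statistics and Benjamini-Hochberg adjustment over all genes, and all adjusted p-values are from this fit unless another is named. Replicate numbers were not used to pair arrays, since only 9 of 30 same-numbered pairs correlated over 0.1 in their deviations. The fit was tested on simulated data for curdlan 2 h against nontreated over 19937 genes. Of 100 genes changed by 1 and 100 changed by 2 (log2), 99% and 100% were called, with 0 calls among unchanged genes. The simulated noise was drawn independently for each array. It thus held no arrays that stood apart, and recovery with such arrays was not tested.

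The gene lists, the named genes and the comparison itself were chosen with earlier results of these data known. A list counted among the 43 response lists is not reported here. The genes named were the 12 largest rises and falls without overlap, up to 5 risen and 5 fallen members of each list (or the 2 with the largest difference where none passed), a fixed set of 17 genes, the 5 with the smallest p, and the 6 risen and 6 fallen with the highest nontreated mean. Alternatives were the 6 arrays alone, a replicate block, other scalings, array weights, a filter on low levels, the mean of probe sets, other thresholds and leaving out arrays. Promoter and microRNA sequences are from RefSeq (GRCm38.p6), with the same chromosome left out of both searches. The counting of list members under other scalings and of promoters with 1 start were chosen after seeing the data.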

Additional observations from a re-analysis of the deposited data

Results flagged for a closer look

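Genes of the 12 largest rises, the 12 largest falls and the fixed set stand here where the effect of curdlan differed between times or with FK506, by limma's test of the difference itself. All share the curdlan 2 h arrays with the main comparison. At 4 h minus 2 h of curdlan, the log2 difference was 2.19 for Il12b, 1.25 for Csf2, 1.13 for Il2, 1.02 for Ccl1, 0.9989 for Rubcnl, 0.99 for Il23a, 0.93 for Il6, 0.88 for Il1a, 0.81 for Trp53inp1, 0.69 for Ppm1k, 0.67 for Meis1 and 0.60 for Ptgs2. It was −0.80 for Rcan1, −0.93 for Nr4a1, −1.01 for Egr2, −1.17 for Egr3 and −1.56 for Ccl7. Ptgs2 did not pass without curdlan 2 h replicate 3 (0.48).

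At 2 h, curdlan with FK506 minus curdlan alone, the log2 difference was 1.12 for Meis1, 0.9995 for F630028O10Rik, 0.81 for Rubcnl, 0.68 for Napepld, 0.63 for Rnf144b and 0.62 for Smco3, the last not passing without curdlan 2 h replicate 3 (0.58). It was −0.80 for Nr4a3, −1.07 for Il23a, −1.10 for Egr3, −1.51 for Nr4a1, −1.57 for Rcan1, −1.59 for Egr2, −1.61 for Il2, −1.67 for Ccl1, −1.67 for Csf2, −2.03 for Il12b, −2.11 for Ptgs2, −2.55 for Ccl4 and −3.75 for Ccl7.

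Probe sets outside the gene comparison also carried signal. Of 1321 probe sets with several symbols 22 were higher with curdlan (1.67%) and 15 lower (1.14%), by up to 5.53 and −1.43. Of 11799 probe sets without a symbol 170 were higher (1.44%) and 116 lower (0.983%), by up to 5.6 and −1.74.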

How the results depend on the processing

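Of 215 named genes that passed with curdlan at 2 h, 158 passed under all 15 alternatives, and none of the 240 named genes that was called turned its direction. Of the 439 risen and 279 fallen genes, 271 and 74 passed limma's treat test against a fold of 1.5, and 212 and 34 reached a fold of 2. Without a fold threshold 1434 rose and 2570 fell, and over all probe sets, named or not, 665 rose and 423 fell. Leaving out 1 array at a time gave 417 to 500 risen and 254 to 396 fallen genes, the most falls without nontreated replicate 1. With the replicate block 438 rose and 279 fell, all of them called without it, and no named call changed. Other scalings gave 469 and 253 (quantiles) or 484 and 226 (medians), so the risen share of calls was 61.1%, 65% and 68.2%. Centring moved the median of all genes to 0.0023, against −0.04 as deposited. It ended 7 named calls, among them those of Asb2 (−0.58), P2rx7 (−0.58) and S1pr4 (−0.55). In limma's fit to the 6 arrays alone 9 named calls were lost, those of Tlr3 (adjusted p = 0.0525), Zfp939 (0.056), Tlr4 (0.0606), Cd14 (0.073), Olfr111 (0.0739), Kdm3a (0.0921), Cdkn1b (0.108), Mir146 (0.112) and Clec4d (0.133). From 2 h to 4 h 16 or 17 of the 37 genes changed under the alternatives, and between FK506 with curdlan and curdlan alone 19 to 21; leaving out 1 array gave 16 to 17 and 19 to 20. The cause of these changes was not tested. Signal near background limits what can be seen for low genes such as Il6 and Il10.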

Other observations

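Many called genes stood on no list. Those named here were chosen after their values were seen. Among the rises were 2 polo-like kinase genes, Plk3 (2.75) and Plk2 (1.49), the immediate early gene Ier2 (2.18) and the pseudokinase gene Trib1 (1.99), whereas its relative Trib2 fell (−1.0019). Ptx3, a soluble pattern recognition molecule that binds fungi, rose by 2.76, and Iltifb, an interleukin-22-like gene, by 2.23. Genes of surface proteins that rose included Jam2 (2.42), Pvr (2.30) and the receptor gene S1pr3 (1.84). The transcription factor gene Mitf rose by 1.86 and the clock gene Per1 by 0.89. Lpl, which encodes lipoprotein lipase, rose by 1.23, and Lpin1, another lipid enzyme gene, fell by 0.90. Further falls were those of the short-chain fatty acid receptor gene Ffar2 (−1.12), the kinase gene Sik1 (−1.07) and the cytidine deaminase gene Apobec1 (−0.89).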
